A study of Mus musculus with 18 samples.

Results

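Sites called as 5-methylcytosine (m5C) that lay in exons of noncoding RNAs were described in bisulfite-sequenced RNA labelled as that of mouse cortical neurons. A site was counted when it fell, on its own strand, in no exon of a curated protein-coding transcript of RefSeq but in an exon of a RefSeq noncoding RNA, a group that takes in long noncoding RNAs, tRNAs, rRNAs, small nuclear RNAs (snRNAs), small nucleolar RNAs (snoRNAs), miRNA precursors and transcribed pseudogenes. Of the 25890 distinct sites listed in 9 libraries, 3716 (14.4%) met this rule, and 17998 lay in exons of protein-coding transcripts. The remaining 4176 lay elsewhere and are not described.

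Per the labels, the cells were cortical neurons in primary culture from C57BL/6 mice of fetal day 18, and no transgene or deletion is named for any group. Control cells were untreated, and the other groups were deprived of oxygen and glucose for 1.5 h or 3 h and then kept for 24 h in normal medium (OGD/R 1.5 h and OGD/R 3 h), with 3 libraries in each group. All RNA was depleted of rRNA before bisulfite treatment. How many fetuses or cultures stand behind a group is not given in the sources used here. Coverage was held only for sites that the study had filtered, and there the libraries of a group differed by less than the sampling noise. The 3 libraries were therefore counted as 1 sample, a mean ± SD describes the spread of libraries, and no p-value is given. Each file lists sites with a score that grows with coverage and methylation level together and is capped at 1000, so that no level or read number can be taken from it, and the depth is unknown.

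The labelled cell type was checked against marker genes, counted as genes with a listed site of any exonic kind. None of 12 neuronal markers, Tubb3, Map2 and Rbfox3 among them, carried a site in any of the 9 libraries, and of 11 neuronal noncoding RNAs only Rian did, with 1 site in 1 control library. All 12 markers of intestinal epithelium carried a site, 11 of them in control, 10 in OGD/R 1.5 h and 12 in OGD/R 3 h, with 67 to 81, 38 to 45 and 106 to 120 sites per library. Sites of erythroid markers (2 of 6, with 31 sites in each library) and of neutrophil markers (3 of 8, with 21 sites in each library) were seen after 3 h of deprivation alone, with 0 sites in control and OGD/R 1.5 h. Smooth muscle markers carried 7 to 15, 8 to 10 and 8 to 11 sites per library, and 1 of 6 astrocyte markers carried a site in each group. A gene without a listed site can still be expressed, and the part of these differences in the results below was not tested.

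m5C is laid down in noncoding RNA by a small set of enzymes with known targets. NSUN2 methylates tRNAs where the variable loop meets the T stem, DNMT2 methylates cytosine 38 in the anticodon loop of tRNA-Asp, tRNA-Gly and tRNA-Val, and NSUN6 methylates cytosine 72 at the end of the acceptor stem of tRNA-Thr and tRNA-Cys. NSUN3 acts on cytosine 34 of the mitochondrial tRNA-Met, and vault RNA is a further substrate of NSUN2. Bisulfite converts unmethylated cytosine to uracil, and cytosines in strongly folded RNA are known to convert less readily. Whether a listed cytosine was methylated or left unconverted was not tested here.

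The sequences around sites that the results turn on are shown in 5′ to 3′ order, as 21 bases of mm10 on the strand of the RNA with the listed cytosine in capitals. The tRNA windows show the places that methyltransferases are known for, namely cytosine 38 of a tRNA-Asp (chr10:91182121-91182141, minus strand) and of a tRNA-Gly (chr1:171045011-171045031, plus strand), cytosine 49 of a tRNA-Glu (chr10:30811177-30811197, plus strand) and cytosine 72 of a tRNA-Thr (chr11:79704710-79704730, plus strand).
n-TDgtc16, cytosine 38: ccgcctgtcaCgcgggagacc
n-TGgcc4, cytosine 38: tcgcctgccaCgcgggaggcc
n-TEctc9, cytosine 49: ccgccgcggcCcgggttcgat
n-TTcgt3, cytosine 72: ccgtccgtgcCtgcgtttgga

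The windows of snoRNAs and an snRNA show RNAs that differ between the groups. They come from the box C/D snoRNAs SNORD10 (Gm25835, chr11:69668970-69668990, minus strand), Snord15b (chr7:99479697-99479717, minus strand), SNORD88 (LOC115486842, chr7:44250477-44250497, plus strand) and Snord70 (chr1:59691948-59691968, plus strand), and from U3 (Rnu3a, chr10:40258585-40258605, plus strand).
Gm25835: gtgatgaaccCcatgcgtgtc
Snord15b: cttctgtgccCttcagtgatg
LOC115486842: gctctgaccaCcatggtgata
Snord70: tgatgtatacCttttggaact
Rnu3a: gcttttagtgCtgcattttgc

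The windows of longer and catalytic RNAs are those of the Malat1 site with the largest difference in score (chr19:5799627-5799647, minus strand), of Rpph1 (chr14:50807477-50807497, minus strand), of Rmrp (chr4:43493021-43493041, minus strand) and of the mitochondrial 16S rRNA (chrM:1203-1223, plus strand).
Malat1: aaggaagtggCtttaatgacc
Rpph1: gaggcacctcCcgggcctcat
Rmrp: gtttcctaggCtacatacgag
mt-Rnr2: agaactagtaCcgcaagggaa

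The number of sites in noncoding exons was highest in OGD/R 3 h. Control replicates 1, 2 and 3 listed 972, 1039 and 1030 such sites, OGD/R 1.5 h replicates 1073, 1121 and 1042, and OGD/R 3 h replicates 1496, 1444 and 1549. The means were 1014 ± 36.4, 1079 ± 39.8 and 1496 ± 52.5 (SD over 3 libraries), and the OGD/R 3 h group lay above all other libraries. OGD/R 1.5 h lay above control by a margin of 3 sites between the nearest libraries, and with curated transcripts alone its difference from control was -28.7 sites. The number of listed sites rests on how much of an RNA was read as well as on its methylation, and fewer cells of a type and less RNA per cell cannot be told apart.

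As a share of all sites of a library, noncoding exons held 16.7 ± 0.655% in control, 19.2 ± 0.773% in OGD/R 1.5 h and 20.04 ± 0.888% in OGD/R 3 h. The libraries of both OGD/R groups lay above those of control and overlapped each other. The number of mRNA sites was 3937 ± 179, 3595 ± 126 and 4880 ± 303, so the OGD/R 1.5 h libraries had fewer mRNA sites and more noncoding sites than the control libraries. With sites listed in all 3 libraries of a group, the difference of OGD/R 3 h from control was 0.928 percentage points in place of 3.31, and that of OGD/R 1.5 h was 9.63 in place of 2.48. With curated transcripts alone these differences were 1.18 and 0.341, of which the latter was below the spread of the libraries.

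**Figure D1:**
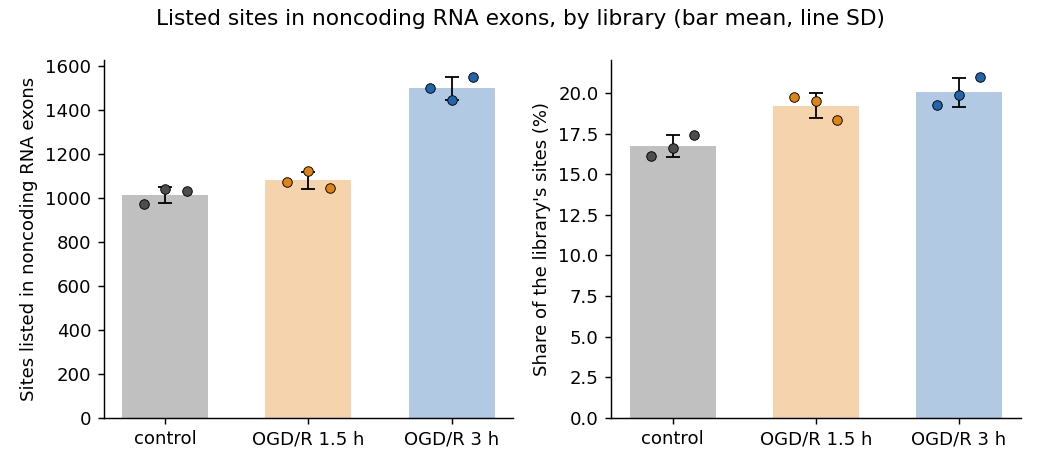
Number of listed sites in noncoding RNA exons (left) and their share of all sites of the library in percent (right), with points for the 3 libraries of a group, bars for the mean and lines for the SD. The OGD/R 3 h libraries sit between 1444 and 1549 sites, above the 972 to 1121 of the other groups, while the shares of both OGD/R groups lie above those of control.

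Noncoding sites were assigned to 294 genes, of which 139 carried a site in all 3 groups, 48 in control only, 9 in OGD/R 1.5 h only and 53 in OGD/R 3 h only. A library listed sites in 172 ± 6.03 genes in control, 146 ± 2.00 in OGD/R 1.5 h and 191 ± 7.02 in OGD/R 3 h, with no overlap between groups. With sites listed in all 3 libraries of a group, these were 95 genes for control and 94 for OGD/R 3 h. Of the 294 genes, 143 had at least 10 sites and held 3046 of the 3716 sites. In a library, 77.3% to 83.8% of the noncoding sites had another within 10 nt, against 38.9% to 51.6% of the mRNA sites.

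By RNA class, snoRNAs and the related small Cajal body RNAs (scaRNAs) held 1761 sites (47.4%), long noncoding RNAs and other noncoding genes 689, tRNAs 337, snRNAs 279, other small RNAs 265, rRNAs 230 and miRNA precursors 64. Noncoding transcripts of genes that also code for protein held 49 sites and transcribed pseudogenes 42. These last classes had median scores of 3 and 4, against 382 in snoRNAs, 186.5 in tRNAs and 1000, the cap, in miRNA precursors. The listed sites covered 53.3% of all cytosines of the snoRNAs and scaRNAs with a site, 40.3% of those of tRNAs, 36% of those of snRNAs and 2.00% of those of long noncoding RNAs.

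The classes differed in their order between groups. Sites of snoRNAs and scaRNAs numbered 478, 541 and 558 in control, then 731, 775 and 681 in OGD/R 1.5 h and 883, 821 and 976 in OGD/R 3 h, with no overlap between groups. Sites of tRNAs were most numerous in control, at 120, 170 and 152, against 90, 84 and 94 in OGD/R 1.5 h and 99, 86 and 111 in OGD/R 3 h. The snRNAs had 56, 67 and 66 sites in control, against 34, 28 and 35 in OGD/R 1.5 h and 152, 142 and 117 in OGD/R 3 h. Other small RNAs had 115, 89 and 100 sites in control and fewer in every library of OGD/R 1.5 h (60, 49 and 51) and OGD/R 3 h (49, 64 and 64). In control, the signal recognition particle RNA genes Rn7s1 and Rn7s2 held 23, 20 and 25 and 19, 23 and 24 of these sites. They held 0 in both OGD/R groups, and without them the groups overlapped. Long noncoding RNAs overlapped between control (135, 120 and 98) and OGD/R 1.5 h (98, 121 and 113) and were higher in OGD/R 3 h (197, 216 and 180). Malat1 alone held 53, 58 and 34 of these in control and 116, 122 and 102 in OGD/R 3 h. Without Malat1 the groups overlapped. Genes of this class with a site numbered 35 in control, 24 in OGD/R 1.5 h and 20 in OGD/R 3 h.

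**Figure D2:**
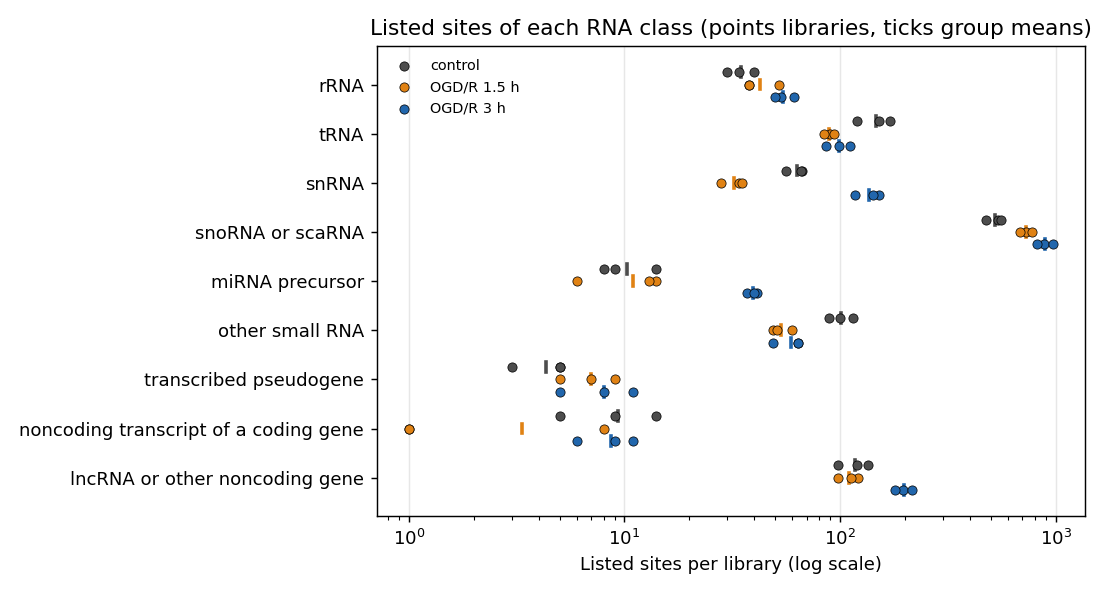
Listed sites per library on a log axis for each RNA class, with a point for each library and a tick for each group mean. Control has the most tRNA and other small RNA sites (120 to 170 and 89 to 115), and OGD/R 3 h the most snoRNA or scaRNA, snRNA, miRNA precursor and long noncoding RNA sites. The groups overlap in other small RNAs without Rn7s1 and Rn7s2, and in long noncoding RNAs without Malat1.

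The number of sites per gene was compared between groups, with a gene called when all 3 libraries of a group lay outside the range of the other 3. Of 285 noncoding genes with a site in control or OGD/R 3 h, 88 (30.9%) had more sites after 3 h and 25 (8.77%) fewer, against 19.9% and 17.7% of all genes with a site, mRNA genes included. Of 241 noncoding genes in control or OGD/R 1.5 h, 32 (13.3%) had more sites after 1.5 h and 24 (9.96%) fewer, against 9.01% and 14.7% of all genes. Among snoRNAs and scaRNAs, 62 of 140 genes had more sites and 6 fewer in OGD/R 3 h, while among tRNAs 5 of 42 had more and 7 fewer. Of 20 snRNAs 9 had more and 5 fewer, of 37 long noncoding RNAs 6 had more and 3 fewer, and of 10 other small RNAs 0 had more and 3 fewer.

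The sites that any 2 libraries had in common were set against all sites listed in either. Within control this share was 41.0% to 48.96% of the noncoding sites and 40.01% to 40.9% of the mRNA sites. Within OGD/R 1.5 h it was 46.0% to 49.6% of the noncoding and 29.7% to 30.5% of the mRNA sites, and within OGD/R 3 h 41.4% to 42.4% and 42.7% to 45.3%. Between control and OGD/R 3 h it was 18.3% to 24.5% of the noncoding sites and 6.86% to 7.32% of the mRNA sites, and between control and OGD/R 1.5 h 29.3% to 35.9% and 10.3% to 10.8%. Over the unions of libraries, 702 noncoding sites were found in all 3 groups, 556 in control only, 392 in OGD/R 1.5 h only and 1266 in OGD/R 3 h only. These differences in sharing have no test.

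Sites listed in all 3 libraries of a group and in 0 of another were counted over the sites listed in either. In OGD/R 3 h but not control there were 332 of 3324 noncoding sites (9.99%), against 12.8% of all sites, and in control but not OGD/R 3 h 138 (4.15%), against 8.06%. In OGD/R 1.5 h but not control there were 131 of 2450 (5.35%), against 5.40%, and in control but not OGD/R 1.5 h 97 (3.96%), against 8.20%. In OGD/R 3 h but not OGD/R 1.5 h there were 230 of 3160 (7.28%), against 12.6%, and in the opposite case 82 (2.59%), against 5.35%.

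The score was compared at sites listed in all 6 libraries of 2 groups and called where the libraries did not overlap. At 209 noncoding sites, the score was higher in OGD/R 3 h than in control at 90 (43.1%) and lower at 2 (0.957%). Of all 557 sites compared, these 209 included, 30.0% were higher and 8.62% lower. The median log2 difference was 0.79 at the noncoding sites and 0.20 at all sites, and 62 of the 209 were at the cap in all 6 libraries and could not differ. At 288 noncoding sites the score was higher in OGD/R 1.5 h than in control at 103 (35.8%) and lower at 7 (2.43%). Of all 689 sites compared, these 288 included, 21.8% were higher and 9.0% lower. Of the 103, 100 lay in 16 snoRNAs or scaRNAs, among them 22 in Snord15b, 17 in SNORD101 (LOC115487513) and 14 in SNORD10. Of the 7, 4 lay in 2 snoRNAs. At 319 sites the score was higher in OGD/R 3 h than in OGD/R 1.5 h at 84 (26.3%) and lower at 40 (12.5%). Of all 617 sites compared, 24.3% were higher and 12.6% lower, but these 617 include the 319, so the closeness of the shares is partly built in. Of the 84, 67 lay in 15 snoRNAs or scaRNAs, and of the 40, 26 lay in Snord15b and 9 in SNORD88. Cytosines of 1 RNA are not independent of each other. Of the 90 higher scores in OGD/R 3 h against control, 65 lay in 13 snoRNAs or scaRNAs and 14 in the U3 gene Rnu3a. These 14 were the only snRNA sites compared, are cytosines of 1 RNA, and had a median log2 difference of 4.01. In tRNAs 7 of 34 sites, in 3 of 7 genes, were higher and 0 lower.

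The median score of the noncoding sites of a library was 113.5 ± 22.7 in control, 223 ± 29.9 in OGD/R 1.5 h and 235 ± 25.8 in OGD/R 3 h, and the control libraries lay below all others. The mRNA sites had library medians of 7 to 12. At the cap were 21.8 ± 2.36%, 33.5 ± 1.77% and 31.8 ± 0.794% of the noncoding sites of a library, and 1.39% to 3.72% of its mRNA sites.

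Small nucleolar RNAs guide the modification of other RNAs, with box C/D members directing ribose methylation and box H/ACA members pseudouridylation, and most are cut from introns of host genes. Of the 79 box C/D snoRNAs with a site, 77 lay within a longer gene, as did all 45 box H/ACA snoRNAs. The box C/D snoRNAs held 991 sites on 76.2% of their cytosines with a median score of 641, and the box H/ACA snoRNAs held 582 sites on 40.1% of theirs with a median score of 26. Box C/D sites numbered 407 ± 27.5 in control, 548 ± 31.0 in OGD/R 1.5 h and 600 ± 43.3 in OGD/R 3 h. Box H/ACA sites numbered 85.0 ± 7.55, 131 ± 17.2 and 216 ± 28.4, in 28, 29 and 42 snoRNAs.

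In some snoRNAs every cytosine was listed. This held for 19 short RNAs in at least 1 library, 18 of them snoRNAs, and for 5 to 7 RNAs per library in control, 10 to 12 in OGD/R 1.5 h and 9 to 12 in OGD/R 3 h. Whether the cytosines of such fully listed RNAs were methylated or left unconverted was not tested. SNORD101 (LOC115487513), in the ribosomal protein gene Rps12, had the same 17 of its 18 cytosines listed in each of the 9 libraries. SNORD81 (LOC115487640), within Gas5, likewise had 13 of 15 listed in each. These RNAs did not differ between groups in their number of sites. The score was nevertheless higher in OGD/R 1.5 h and in OGD/R 3 h than in control at all 17 sites of SNORD101. At the 13 sites of SNORD81 it was higher or lower at 0. SNORA53 (Gm24119), a box H/ACA snoRNA with 37 sites, was among the 2 snoRNAs with the most sites and carried 5, 10 and 1 in control, followed by 4, 9 and 4 in OGD/R 1.5 h and 12, 16 and 12 in OGD/R 3 h.

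SNORD10 (Gm25835), in an intron of the translation factor gene Eif4a1, had 16, 36 and 36 sites in control, then 36, 35 and 36 in OGD/R 1.5 h and 0, 0 and 0 in OGD/R 3 h. All of its 36 cytosines were therefore listed in some libraries, and none in OGD/R 3 h. At its cytosine shown above the scores were 77, 176 and 674 in control and 1000 in each OGD/R 1.5 h library. Snord15b, in Rps3, carried 23, 22 and 22 sites in control, 32 of its 32 cytosines in every OGD/R 1.5 h library and 29, 29 and 30 in OGD/R 3 h. Its site shown above was listed only in OGD/R 1.5 h, with scores of 791, 1000 and 913. SNORD88 (LOC115486842) carried 9, 9 and 9 sites in control, against 23, 23 and 23 in OGD/R 1.5 h and 21, 21 and 21 in OGD/R 3 h. Its site shown above had scores of 11, 21 and 11 in control, followed by 959, 1000 and 686 in OGD/R 1.5 h and 399, 253 and 637 in OGD/R 3 h, and the groups did not overlap.

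Several snoRNAs of ribosomal protein genes, chosen after their values were seen, had more sites after 3 h than in control. Within Rpl13a, Snord34 carried 2, 1 and 0 sites in control, then 5, 4 and 8 in OGD/R 1.5 h and 17, 17 and 17 in OGD/R 3 h. In the same gene, Snord33 carried 0, 0 and 0 in control, against 0, 0 and 1 in OGD/R 1.5 h and 11, 10 and 8 in OGD/R 3 h, and Snord32a carried 6, 4 and 6, then 21, 20 and 23, then 24, 24 and 24. Snora64, in Rps2, carried 8, 10 and 13 sites in OGD/R 3 h and 0 in the other 6 libraries. Snord70, in Nop58, had a site with a score of 1000 in each OGD/R 3 h library that was not listed elsewhere, as did the neighbouring snoRNA LOC115485825. Gm26457, another box C/D snoRNA of chromosome 1, had a site at position 63178714 with scores of 16 and 35 in the control libraries that listed it, 5, 114 and 18 in OGD/R 1.5 h and 1000 in each OGD/R 3 h library. The opposite order was seen in Snord104, with 9, 10 and 10 sites in control and 0 in the other 6 libraries, and in Snord118 (U8), which carried 12, 13 and 11 sites in control, followed by 15, 14 and 9 in OGD/R 1.5 h and 0, 0 and 3 in OGD/R 3 h. At its position 69073504, Snord118 had scores of 662, 152 and 383 in control and 13, 129 and 129 in OGD/R 1.5 h, a mean log2 difference of -2.45.

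Among the scaRNAs, which guide the modification of spliceosomal RNAs, Scarna3a carried 0, 1 and 0 sites in control, then 0, 1 and 2 in OGD/R 1.5 h and 11, 10 and 23 in OGD/R 3 h. The scaRNA 6 gene Gm25395 carried 8, 6 and 5 sites, then 11, 9 and 7, then 13, 12 and 13. All 7 scaRNAs together carried 18.0 ± 5.29, 12.3 ± 2.52 and 34.3 ± 7.51 sites. Their median score of 8 was far below that of the box C/D snoRNAs.

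Some RNAs had most of their cytosines listed in part of the libraries of a group and none in another library of it. SNORA48 (Gm25117) had all 33 of its cytosines listed in 8 libraries and 0 in OGD/R 3 h replicate 2. Snord59a carried 15, 0 and 15 sites in OGD/R 3 h, Snord49a 0, 0 and 13, and the tRNA-Lys gene n-TKctt17 carried 0, 14 and 14 in control. In 16 cases a gene had 0 sites in 1 library of a group and at least 5 in each of the other 2. A count of 0 for such an RNA in 1 library is therefore within the spread of libraries of the same group.

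**Figure D3:**
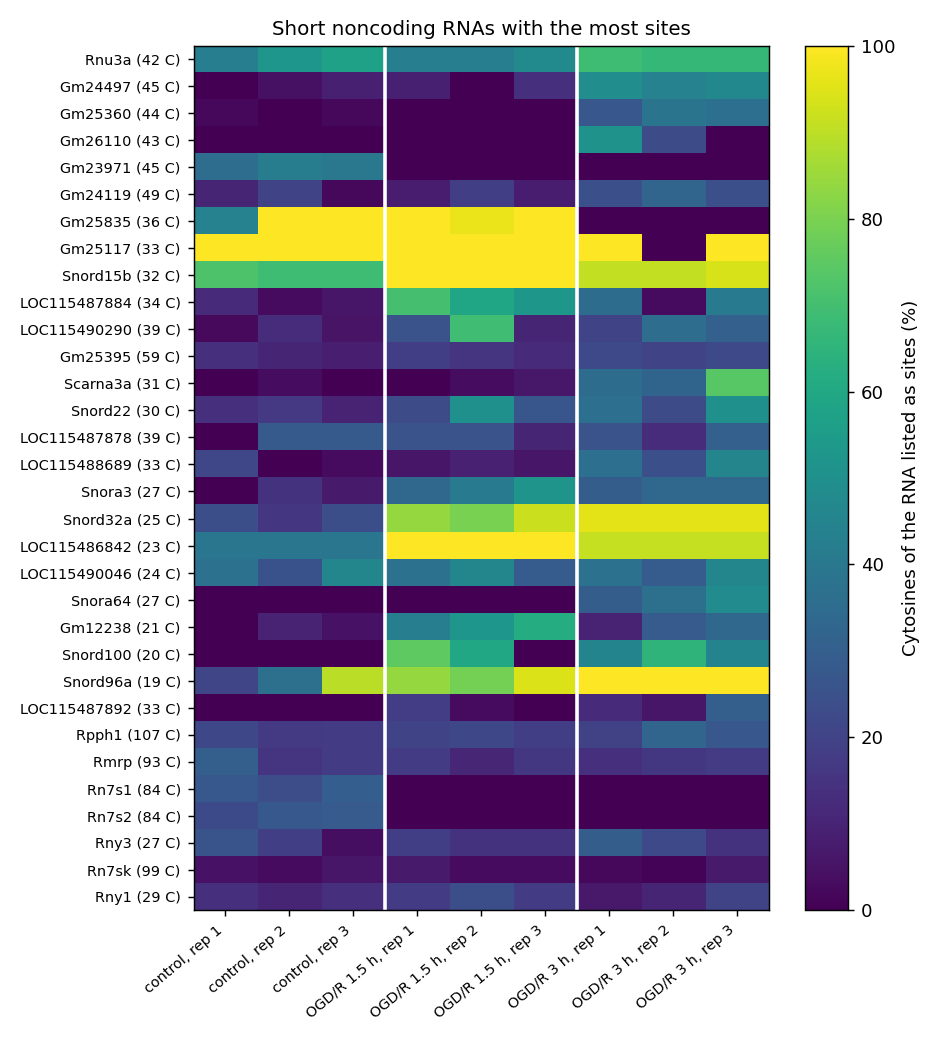
Percent of the cytosines of an RNA listed as sites in each of the 9 libraries, for the 32 short noncoding RNAs with the most sites other than the mitochondrial rRNAs, with the number of cytosines in brackets. Gm25835 is near 100% in control replicates 2 and 3 and in OGD/R 1.5 h and at 0 in OGD/R 3 h, Gm25117 is at 0 in OGD/R 3 h replicate 2 alone, and Snord32a and LOC115486842 are lower in control than in both OGD/R groups.

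Few of the noncoding host transcripts examined carried sites of their own. Exons of protein-coding hosts fall outside the rule used here. Gas5 and Snhg1 each contained 8 snoRNAs with a site, which held 95 and 109 sites. Of 22 annotated snoRNA host genes in the list examined, only Gas5, Dancr and Zfas1 had a site in their own exons. Gas5, a growth arrest transcript, carried 6, 4 and 4 sites in control, against 3, 7 and 3 in OGD/R 1.5 h and 6, 7 and 4 in OGD/R 3 h, and the groups overlapped. Dancr carried 1, 0 and 2, then 3, 0 and 0, then 5, 3 and 8 sites, higher in OGD/R 3 h than in control, and Zfas1 had 1 site in OGD/R 1.5 h with scores of 44, 4 and 11.

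Transfer RNAs showed sites at the places known for m5C. Of 337 sites, 316 lay in 40 nuclear tRNA genes and 21 in 2 mitochondrial ones, and nuclear positions were numbered from the 3′ end, which is 73 in the tRNA scheme, or from the anticodon. At positions 48 to 50, the known places of NSUN2, 54 of 71 cytosines (76.1%) were listed, with a median score at the cap of 1000. At position 38, 8 of 20 cytosines (40%) were listed, with 97.7% of the scores at the cap. Cytosine 56 in the T loop, present in all 40 genes, was listed in 17 (42.5%), with a median score of 13, and at the remaining positions 224 of 628 cytosines (35.7%) were listed, with a median score of 44.

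The sites at position 38 lay in 6 tRNA-Asp genes, 1 tRNA-Gly and 1 tRNA-Glu gene. In n-TDgtc16, whose full sequence is found in 1 annotated tRNA gene although the window of its cytosine 38 occurs at 14 places in mm10, cytosine 38 had a score of 1000 in all 9 libraries, as did its cytosine 49. In the tRNA-Gly gene n-TGgcc4 it had 1000 in 8 libraries and was not listed in OGD/R 1.5 h replicate 2. In the tRNA-Glu genes n-TEctc9 and n-TEttc1 cytosine 49 also had 1000 in all 9 libraries. The tRNA-Glu gene n-TEctc6 had the largest lower score after 3 h, with 560, 1000 and 839 in OGD/R 1.5 h and 0, 3 and 169 in OGD/R 3 h at the base before, a mean log2 difference of -6.47. Its window occurs at 11 places, and the same base in the copy n-TEctc9, with an identical window, scored 535, 1000 and 543 in OGD/R 1.5 h and 1000, 905 and 485 in OGD/R 3 h. At the cap a difference between groups cannot be seen. A further tRNA-Gly site, at position 171045010 in n-TGgcc4, had scores of 5, 6 and 2 in control, against 340, 460 and 370 in OGD/R 3 h, a mean log2 difference of 6.27, and its window occurs at 15 places.

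Position 72 was listed in 9 tRNA genes. In the tRNA-Thr gene n-TTcgt3 its scores were 1000, 1000 and 841 in control, and in the other 8 genes they ranged from 1 to 61. This gene carried 8, 9 and 9 sites in control and 0 in the other 6 libraries. Other tRNA genes with sites in all control libraries and 0 elsewhere were n-TRccg1 with 6, 6 and 7, n-TLtag3 with 5, 8 and 4 and n-TQctg6 with 4, 2 and 3. A site of n-TQctg6 at position 69124631 had a score of 1000 in each control library, and its window occurs at 12 places. In all, 38 tRNA genes carried a site in control, 19 in OGD/R 1.5 h and 21 in OGD/R 3 h. Of the genes with sites in control alone, n-TTcgt3, n-TRccg1, n-TLtag3 and n-TQctg6 lie on chromosome 11. Likewise n-TKctt17 lies on chromosome 12, and n-TIaat9 and n-TVcac9 on chromosome 13. On chromosomes 11 and 13, n-TDgtc9 and n-TLcaa1 had sites in every group. Whether the difference in tRNA genes follows their place in the genome was not tested.

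**Figure D4:**
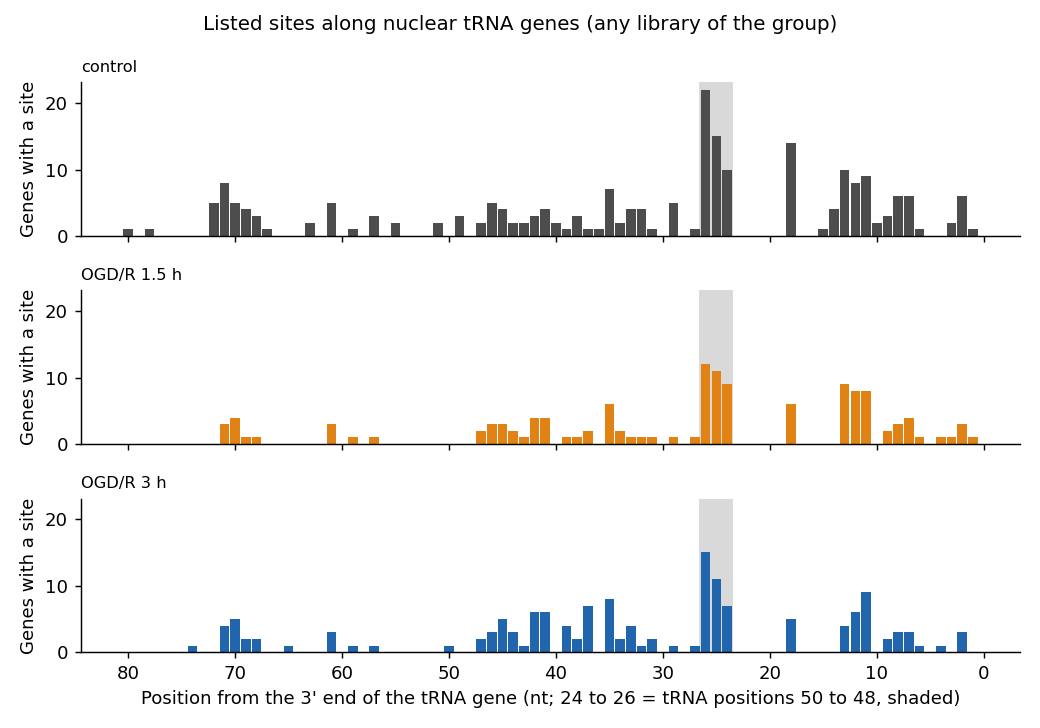
Number of nuclear tRNA genes with a listed site at each position from the 3′ end, for the union of the libraries of each group, with positions 48 to 50 of the tRNA scheme shaded. The bars at 48 reach 22 genes in control, 12 in OGD/R 1.5 h and 15 in OGD/R 3 h and are the highest of each group, and those at position 56 reach 14, 6 and 5.

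Of the mitochondrial tRNAs, the tRNA-Met gene TrnM had 15 of its 18 cytosines listed in at least 1 library, with 2 to 6 sites per library. Its cytosine 34, the known target of NSUN3, had a score of 1000 in control replicate 1 and OGD/R 3 h replicate 2 and was not listed in the other 7 libraries. The position of a tRNA site is less sure than that of others, since identical copies of a tRNA gene cannot be told apart. Only 37.4% of the 21-nt windows of tRNA sites occur at 1 place in mm10, against 76.3% of all noncoding windows. Chromosomes 1, 10 and 11 held 24 of the 42 tRNA genes with a site but 95 of the 425 annotated tRNA genes (22.4%).

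The 14 snRNA sites with a higher score after 3 h all lay in U3, and no spliceosomal RNA had a site in all libraries of both control and OGD/R 3 h. U3 (Rnu3a), which guides rRNA processing and is annotated among the snRNAs, carried 18, 22 and 24 sites in control, followed by 18, 18 and 20 in OGD/R 1.5 h and 29, 28 and 28 in OGD/R 3 h. All U3 genes together had 29, 32 and 31 sites in control and 23, 18 and 20 in OGD/R 1.5 h. In OGD/R 3 h they had 32, 37 and 35, level with control at the nearest libraries. The Rnu3a site shown above was scored at 10, 11 and 3 in control, was not listed in OGD/R 1.5 h and was scored at 769, 741 and 349 in OGD/R 3 h, a mean log2 difference of 6.18. U7 (Rnu7), which acts in the processing of histone mRNAs, carried 0, 3 and 2 sites in control, then 4, 4 and 4 in OGD/R 1.5 h and 13 of its 13 cytosines in every OGD/R 3 h library.

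The spliceosomal RNAs differed in the gene copy that carried the sites. U2 genes together had 21, 25 and 27 sites in control, against 6, 0 and 6 in OGD/R 1.5 h and 38, 46 and 37 in OGD/R 3 h. Gm23971, a U2 gene on chromosome 11, had 16, 19 and 18 of these in control and 0 in the other groups, while Gm24497 and Gm25360 on chromosome 1 had 22, 20 and 21 and 12, 17 and 16 in OGD/R 3 h against at most 6 in any other library. U1 genes had 4, 4 and 5 sites in control, 0 in OGD/R 1.5 h and 41, 12 and 13 in OGD/R 3 h, and U5 genes 2, 3 and 1, then 1, 6 and 5, then 28, 34 and 19. Of the windows of snRNA sites 36.9% occur at 1 place in mm10, so the copy is uncertain, and the family total is the firmer value.

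The RNA components of ribonucleases were listed in every library. Rpph1, the RNA of RNase P, which trims the 5′ ends of tRNAs, carried 23, 18 and 19 sites in control, followed by 22, 23 and 20 in OGD/R 1.5 h and 21, 35 and 29 in OGD/R 3 h, and the groups overlapped. Its site shown above had a score of 1000 in 8 libraries and was not listed in OGD/R 3 h replicate 2. Rmrp, the RNA of RNase MRP, carried 28, 14 and 16 sites, then 16, 10 and 15, then 13, 15 and 16. The copies of the signal recognition particle RNA Rn7s1 and Rn7s2 carried 23, 20 and 25 and 19, 23 and 24 sites in control and 0 in all 6 OGD/R libraries. They are identical in sequence, so their sites cannot be told apart. Of the 21-nt windows, 1 of 37 in Rn7s1 and 5 of 30 in Rn7s2 occur at 1 place in mm10. The others occur at up to 12 places, so the placement of these sites is uncertain. The Y RNA Rny1, bound by the Ro protein, carried 4, 3 and 4 sites in control, then 5, 7 and 5 in OGD/R 1.5 h and 2, 3 and 6 in OGD/R 3 h. Rny3 and the 7SK RNA Rn7sk, which holds back the elongation factor P-TEFb, carried 1 to 8 sites per library with overlapping groups.

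Vault RNA (Vaultrc5), a known m5C carrier, had 11 sites, with 4, 1 and 3 in control, against 3, 1 and 4 in OGD/R 1.5 h and 1, 4 and 0 in OGD/R 3 h. The telomerase RNA Terc had 3 sites, all in OGD/R 3 h. Of the list of known or structured RNAs, 11 of 12 annotated members carried a site, 10 in control, 8 in OGD/R 1.5 h and 9 in OGD/R 3 h.

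The mitochondrial rRNAs held 227 of the 230 rRNA sites, and a 5S rRNA gene the other 3. The 16S rRNA (mt-Rnr2) carried 28, 18 and 21 sites in control, followed by 30, 30 and 22 in OGD/R 1.5 h and 40, 48 and 35 in OGD/R 3 h, and the 12S rRNA (mt-Rnr1) 9, 10 and 11, then 8, 20 and 15, then 13, 11 and 14. Only 2 of 84 rRNA sites in the control union, 4 of 106 in OGD/R 1.5 h and 2 of 135 in OGD/R 3 h were listed in all 3 libraries of the group. The corresponding shares were 37.4%, 46.7% and 34.6% for snoRNAs and scaRNAs. The 16S site shown above was listed in all 3 OGD/R 1.5 h libraries, with scores of 619, 841 and 969, and in none of the other 6. The same held for a 12S site at position 361 of the mitochondrial genome, with scores of 492, 412 and 562.

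Precursors of miRNAs carried 64 sites in 16 genes, 15 of which matched the RefSeq mature sequences of GRCm38, and 44 sites lay within a mature miRNA. The miRNA precursor sites numbered 9, 14 and 8 in control, then 14, 6 and 13 in OGD/R 1.5 h and 41, 37 and 40 in OGD/R 3 h. By precursor, 5 genes had a site in at least 6 libraries and 10 had sites in OGD/R 3 h alone. The mature sequences below were chosen after their values were seen, as examples of both kinds and of miR-126a, which lies between them, with the seed (bases 2 to 8) in capitals. No pair of those shown shares a seed, and let-7i-5p shares its seed with let-7d-5p, whose base 16 was listed in 1 OGD/R 3 h library.
miR-3535: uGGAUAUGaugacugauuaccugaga
let-7i-5p: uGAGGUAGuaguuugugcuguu
miR-423-5p: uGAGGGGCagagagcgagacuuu
miR-126a-3p: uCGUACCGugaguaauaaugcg
miR-451a: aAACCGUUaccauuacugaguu
miR-223-5p: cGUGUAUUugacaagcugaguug

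The cytosines at bases 13, 20 and 21 of miR-3535, whose precursor gene Gm24148 lies in the nucleolin gene Ncl, were listed in all 9 libraries, with a score of 1000 in all but 1 value of 762. The cytosine at base 18 of let-7i-5p had 1000 in 8 libraries. Base 15 of miR-423-5p had scores of 77, 57 and 63 in control, 99 and 114 in the OGD/R 1.5 h libraries that listed it and 772, 849 and 697 in OGD/R 3 h. Base 2 of miR-126a-3p, an endothelial miRNA, had 1000 in the 3 OGD/R 3 h libraries and was not listed in the others, while its bases 6 and 7 were also at 1000 in control replicate 2. Sites in miR-451a, an erythroid miRNA, and in miR-223-5p, a myeloid miRNA, were listed in OGD/R 3 h libraries only, in 2 libraries each. Sites in miR-107-3p, miR-93-5p, miR-101a-3p, miR-677-5p, miR-423-3p, miR-215-5p and let-7d-5p were likewise found in OGD/R 3 h alone. The OGD/R 3 h libraries each held 31 sites in erythroid and 21 in neutrophil marker genes, and the part of this in the miRNA sites was not tested.

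Malat1, a nuclear RNA that is abundant in many tissues, carried 360 sites, the most of any noncoding gene. It had 53, 58 and 34 sites in control, against 44, 45 and 53 in OGD/R 1.5 h and 116, 122 and 102 in OGD/R 3 h, so OGD/R 3 h lay above all other libraries. Between 5501 and 6000 nt from its 5′ end, 64 of 92 cytosines were listed, 46 of them in OGD/R 3 h, 22 in OGD/R 1.5 h and 14 in control. Between 2501 and 3000 nt, 35 were listed in OGD/R 3 h and 14 in control, whereas in the last bin 4 of 99 cytosines were listed in any group. At the site shown above the score was 340, 233 and 220 in control, against 49, 9 and 5 in OGD/R 3 h, a mean log2 difference of -4.17, against the direction of most sites.

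**Figure D5:**
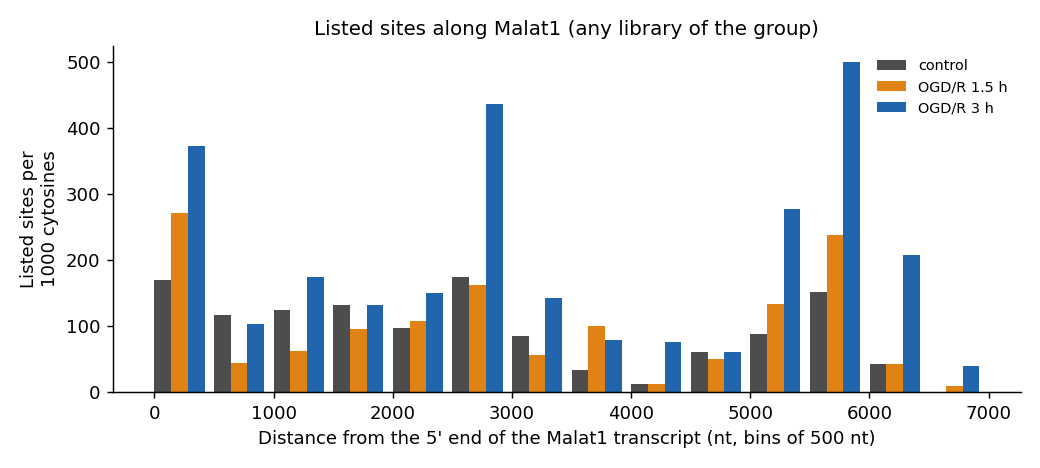
Listed sites per 1000 cytosines in bins of 500 nt along the Malat1 transcript, from the union of the libraries of each group. From control over OGD/R 1.5 h to OGD/R 3 h, the bin at 5501 to 6000 nt, the densest of OGD/R 3 h but not of the other groups, holds 152, 239 and 500 sites per 1000 cytosines, and the bin at 2501 to 3000 nt holds 175, 162.5 and 437.5.

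Neat1, the scaffold of paraspeckles, carried 4, 2 and 5 sites in control, followed by 6, 3 and 8 in OGD/R 1.5 h and 12, 17 and 16 in OGD/R 3 h. Of 9 nuclear long noncoding RNAs examined, Malat1, Neat1 and Norad had a site, and Xist, Meg3 and Miat had none. Norad had 2 sites in 1 control library. The opposite-strand RNA Abhd11os carried 33 sites with overlapping groups, at 7, 5 and 5, then 9, 12 and 5, then 9, 9 and 5. Gm46178, a predicted gene on chromosome 1, carried 25 sites of which 9 were listed in all 9 libraries. Its site at position 191121160 had scores of 398, 312 and 87 in control, then 11, 24 and 3 in OGD/R 1.5 h and 974, 762 and 1000 in OGD/R 3 h, and the window of this site occurs at 8 places in mm10.

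Transcribed pseudogenes and noncoding transcripts of coding genes added little. Btnl5-ps held 28 of the 42 pseudogene sites, with 5, 3 and 5 in control, against 3, 1 and 4 in OGD/R 1.5 h and 9, 6 and 4 in OGD/R 3 h. Noncoding transcripts of coding genes made up 0.932 ± 0.482%, 0.317 ± 0.391% and 0.582 ± 0.178% of the noncoding sites of a library, with overlapping groups. Plekha6 had 12 and Abr 8 of these 49 sites, and the ubiquitin pseudogene Ubb-ps had 4 sites.

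The sequence context differed between noncoding and mRNA sites and between RNA classes. The CG context held 14.3% of the noncoding sites, CHG 27.1% and CHH 58.6%, where H is A, C or U, against 8.59%, 23.8% and 67.6% of all cytosines of the transcripts concerned. The mRNA sites had 22.4%, 37.96% and 39.6%. In snoRNAs and scaRNAs the sites had 8.40% CG and 63.1% CHH against 8.13% and 64.2% of their cytosines, whereas in long noncoding RNAs they had 15.4% CG against 7.01% and 51.8% CHH against 69.96%. The CHH share of the noncoding sites of a library was 56.4 ± 0.869% in control, 59.4 ± 0.311% in OGD/R 1.5 h and 61.5 ± 0.677% in OGD/R 3 h, with no overlap between groups. The mRNA sites had the same order, at 33.3 ± 0.489%, 38.1 ± 1.15% and 41.6 ± 1.12%, also with no overlap. Guanine and cytosine made up 49.3% of the 20 bases around noncoding sites and 58.6% around mRNA sites, with 59.9% in tRNAs and 45.9% in snoRNAs and scaRNAs.

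Sites listed in all 9 libraries numbered 172 of 3716 (4.63%), against 107 of 17998 mRNA sites (0.595%). They lay in 26 genes, with 123 in snoRNAs or scaRNAs, 26 in tRNAs, 11 in long noncoding RNAs, 9 in the snRNA class and 3 in miRNA precursors. At 51 of these sites the score was 1000 in all 9 libraries, and the tRNA-Glu gene n-TEttc1 alone had 9 sites listed in all 9.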

How the data were processed

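The score of each site was deposited by the authors in 1 list per library, for 9 bisulfite libraries in 3 groups of 3, grouped by their labels. Per the labels and the study's methods, reads were trimmed with Cutadapt 1.9.3, aligned to mm10 with meRanGh and called per library with meRanCall, with minimums of 0.1 for the level and 10 for the coverage. The deposited score is 10 times the caller's score, capped at 1000 and not scaled to depth. The 9 mock libraries were not analysed here, and how they entered the calls is not given in the sources used here.

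Sites were placed on RefSeq exons of GRCm38.p6, the mm10 assembly, by strand, with Python 3.11.15 and numpy 2.4.6. Sites in mitochondrial mRNAs or in pseudogenes without a transcript were not counted as noncoding. A score or a number of sites was called higher where the 3 libraries of a group all lay above those of another, the same rule across all sites or genes giving the background, and mean log2 differences were taken of score + 1. Copies of the 21-nt window of a site were counted on both strands of mm10. Counting was tested on simulated data. Coverage was held for control and OGD/R 3 h, at 725 and 1050 sites filtered by the study and covered in all 3 libraries. It showed libraries of a group to differ by less than the sampling noise, and OGD/R 1.5 h was treated alike. Coverage of noncoding RNAs was not checked separately.

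Named were the 5 genes with the most sites per group, the 2 with the most per class, the 8 highest-scoring sites in all 9 libraries, the 3 highest found in 1 group alone, the 3 largest differences of score each way, and the members of lists of structured RNAs, snoRNA hosts and nuclear long noncoding RNAs. Further RNAs, such as Rnu7, SNORD101, Snord104, Scarna3a, n-TKctt17, TrnM, let-7i and miR-451a, were chosen after their values were seen. The sites, lists and markers were chosen with earlier results of these data known. Alternatives were curated transcripts only, sites in all 3 libraries of a group, a score of at least 10, and leaving out each library.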

Additional observations from a re-analysis of the deposited data

How the results depend on the processing

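Differences are given as OGD/R 1.5 h or OGD/R 3 h minus control, and the cause of each move was not tested. With curated transcripts only, without predicted models, the number of sites per library differed by -28.7 in place of 65 (1.5 h) and 239 in place of 483 (3 h), the share of all sites by 0.341 and 1.18 percentage points in place of 2.48 and 3.31, the CHH share by 6.88 in place of 5.08 (3 h), the median score by 52.2 in place of 109 (1.5 h) and the number of genes by 2.33 in place of 19.7 (3 h). With sites in all 3 libraries of a group, the number of sites differed by 220 (3 h), the share by 9.63 and 0.928, the CHH share by 0.744 in place of 3.01 (1.5 h), the share with a neighbour by 7.49 and 5.43 in place of 2.43 and 0.967, the median score by 653 and 358.5 in place of 109 and 121.5, and the number of genes by -12 in place of -25.7 (1.5 h) and by -1 (3 h), which reversed. With a score of at least 10, the share differed by 4.88 (1.5 h), the median score by 346 and 239, the number of genes by -19 and 34.3, and 1 score in place of 2 was lower in OGD/R 3 h than in control. With windows found at 1 place in the genome, a setting chosen after seeing the data, the number of sites differed by 146 (1.5 h), the share by 3.56 (1.5 h) and the median score by 156 and 229. No paired analysis was possible because no result comes from a test. Depth is unknown, so a site or RNA that is not listed may lack reads, and near-identical copies limit the placement of tRNA and snRNA sites.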
